A study of Mus musculus with 6 samples.

Results

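The 60 genes described here encode the machinery of mitosis: the kinases that start it, the spindle checkpoint, the kinetochore, the chromosomal passenger complex, kinesin motors, spindle microtubule proteins, cytokinesis proteins, condensin and topoisomerase, and the proteins that release sister chromatids, together with *Foxm1*, *Mybl2* and the marker of dividing cells *Mki67*. They were picked out by symbol, and all 60 were found among the 53378 genes of the expression table. NSCs (neural stem cells, kept here as dividing neurospheres) were derived from the telencephalic cortex of *Tbl1xr1* flox/flox mouse embryos at E14.5 and infected with a lentivirus carrying either Cre-GFP or GFP only, after which GFP+ cells were sorted. RNA-seq was obtained for 3 control libraries (labelled GFP 1, 1_1 and 2) and 3 libraries labelled Cre (2, 2_2 and 3). All 6 libraries thus carry the same floxed alleles in which loxP sites flank exon V, and the groups differ by the virus. Whether cultures of different origin also separate the groups is not stated, so an effect of Cre and of the culture cannot be told apart. No source used here says which libraries come from separate embryos or cultures, so the p-values measure only the spread between these libraries, which may be technical. In bulk RNA, fewer dividing cells and less RNA per dividing cell cannot be told apart.

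Mitosis separates the replicated chromosomes into daughter cells. CDK1 with cyclin B starts it, the kinetochores tie chromosomes to spindle microtubules, the checkpoint holds the anaphase-promoting complex back until every chromosome is attached, and CDC20 then lets that complex destroy securin and cyclin B so that separase can cut cohesin. Many of these genes are transcribed in G2 and M phase through a shared promoter arrangement, in which a cell cycle genes homology region (CHR) near the transcription start is bound by the DREAM complex in resting cells and by B-MYB and FOXM1 complexes in dividing cells, often beside CCAAT boxes bound by NF-Y.

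The promoters of 4 members are printed to show this arrangement. Each is the run of 250 bases before a transcription start in RefSeq (build GRCm38.p6), written 5′ to 3′ on the strand of the gene. Capitals mark CHR letters (TTTGAA or TTCGAA, or their reverse complement), CCAAT boxes (CCAAT or ATTGG) and E2F sites. *Cdc20* (chr4:118437344-118437593, minus strand) and *Espl1* (chr15:102296043-102296292, plus strand, where the RefSeq gene span already begins within the last bases printed) are shown because their transcripts differed between the groups, *Cdk1* (chr10:69352913-69353162, minus strand) as a textbook example, and *Kif11* (chr19:37376132-37376381, plus strand) as a member with the same arrangement and a small difference, chosen after its values were seen. *Mybl2* also differed between the groups, and its promoter is not printed because it held none of these letters. The stretch searched for *Mybl2* (chr2:163054385-163054684, plus strand) lies wholly within the RefSeq gene span, which begins at 163054327. The bases before that span were thus not searched.
Cdc20: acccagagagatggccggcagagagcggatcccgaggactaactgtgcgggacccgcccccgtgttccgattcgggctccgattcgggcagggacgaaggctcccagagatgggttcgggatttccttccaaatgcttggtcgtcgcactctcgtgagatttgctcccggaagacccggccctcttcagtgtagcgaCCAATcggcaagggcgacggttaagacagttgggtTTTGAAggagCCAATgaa
Espl1: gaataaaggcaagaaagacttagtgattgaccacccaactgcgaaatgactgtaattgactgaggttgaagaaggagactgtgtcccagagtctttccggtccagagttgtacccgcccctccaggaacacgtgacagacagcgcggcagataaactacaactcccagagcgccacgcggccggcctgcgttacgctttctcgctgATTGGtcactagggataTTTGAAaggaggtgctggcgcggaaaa
Cdk1: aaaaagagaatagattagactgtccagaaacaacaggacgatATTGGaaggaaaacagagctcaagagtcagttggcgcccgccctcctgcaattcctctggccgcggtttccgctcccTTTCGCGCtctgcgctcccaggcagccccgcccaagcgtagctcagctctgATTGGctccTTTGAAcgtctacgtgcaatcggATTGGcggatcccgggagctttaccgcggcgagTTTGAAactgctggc
Kif11: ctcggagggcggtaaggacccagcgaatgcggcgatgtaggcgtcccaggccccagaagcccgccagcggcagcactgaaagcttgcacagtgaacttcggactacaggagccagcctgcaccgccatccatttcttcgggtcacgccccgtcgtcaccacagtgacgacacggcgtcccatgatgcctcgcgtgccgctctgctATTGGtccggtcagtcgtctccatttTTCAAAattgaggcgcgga

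CHR and CCAAT letters were common among the members. Of the 60 members, 52 had at least 1 promoter of 300 bases in the reference table (250 before and 50 after the start), giving 57 promoters, and the other 8 (*Tpx2*, *Cdc25c*, *Spc24*, *Aurkb*, *Foxm1*, *Kif20a*, *Smc4* and *Incenp*) had none there. Both strands were searched for exact letters, and matches of different motifs could overlap. A CHR was found in 41 of the 57 promoters (71.9%), against 19.2% of all 32851 promoters in the table and 13.2% of the promoters of tested genes that are not members. CCAAT was found in 73.7% of the member promoters, 37.4% of all promoters and 37.5% of those of tested genes that are not members. An E2F site (TTTCCCGC, TTTCGCGC, TTTGCCGC or TTTGGCGC) was found in 4 of the 57 (7.02%), against 2.27% of all promoters and 3.97% of the promoters of tested genes that are not members. CHR and CCAAT stood together in 63.2% of member promoters and 7.53% of all promoters, and in 5.28% of those of tested genes that are not members. The CHR matches of the members lay mostly around the start, with 28.1% of member promoters holding one within the first 25 bases after it, where 1.43% of all promoters did.

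**Figure D1:**
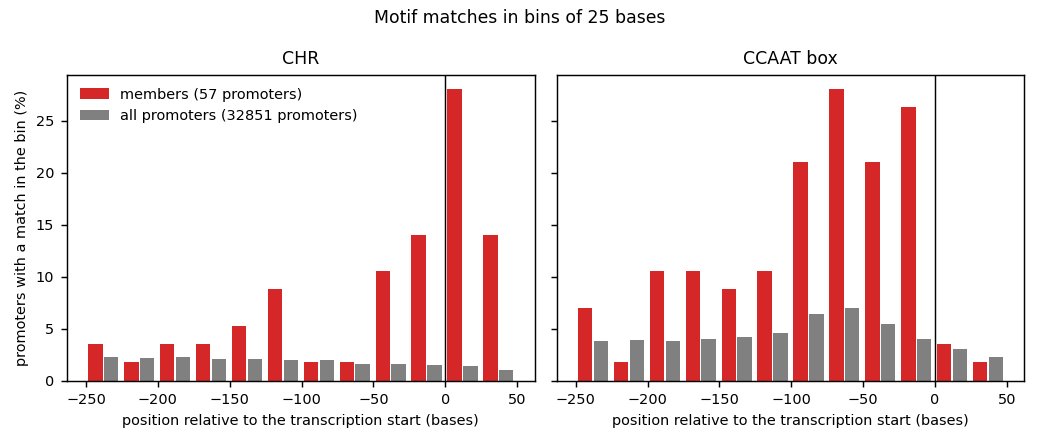
Share of promoters (%) with a CHR match (left) or a CCAAT match (right) beginning in each bin of 25 bases, against the position relative to the transcription start (bases), for the 57 member promoters (red) and all 32851 promoters (grey). Member CHR matches peak at 28.1% in the first bin after the start, and member CCAAT matches lie mostly in the 100 bases before it.

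Members with and without each motif had similar median differences between the groups. The median log2 difference (libraries labelled Cre minus control) was -0.20 in the 38 members with a CHR and -0.20 in the 14 without. It was -0.21 in the 37 members with CCAAT and -0.18 in the 15 without. The 4 members with an E2F site had a median of -0.24, and the 48 without one had a median of -0.18. These are descriptions without a test. Some promoters lay wholly within the RefSeq gene span, both with a CHR (*Aspm* and *Kif14*) and without (*Mybl2* and *Pttg1*). A motif missing there may still lie before the gene span. *Kif11* and *Cdc20* share CHR and CCAAT letters in the printed stretch, and their log2 differences were -0.12 and -0.81.

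The table holds normalized counts, in which 1 size factor per library scales the number of reads. They were compared with limma on log2(normalized count + 1) over 14840 genes with a mean of at least 10, with Benjamini-Hochberg adjustment over all of them. A gene is said to have changed at an adjusted p-value under 0.05. The recovered number of reads on genes was 7510615 to 11161497 in the control libraries and 11893230 to 14828100 in the libraries labelled Cre, so every library of the second group was deeper. The targeted gene, *Tbl1xr1*, had normalized counts of 2522, 2190 and 2721 in control and 3774, 3463 and 2905 in the libraries labelled Cre (log2 difference 0.45 ± 0.14 SE, adjusted p = 0.060). No library labelled Cre thus had fewer counts than control, and a count over the whole gene does not measure the loss of the floxed exon. Directions below are therefore tied to the labels of the libraries.

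Most mitotic genes lay slightly lower in the libraries labelled Cre, and few of them passed the test. All 60 members passed the filter on low values. Their log2 difference was negative in 49 and positive in 11, with a median of -0.20, quartiles of -0.32 and -0.08 and a range of -0.81 to 0.30. Over all tested genes the median was -0.001 and 50.1% were negative. Of the 60 members, 3 (5%) fell, *Cdc20*, *Espl1* and *Mybl2*, which is close to the 5.22% of all tested genes that fell. None rose, against 4.74% of all tested genes. Without adjustment, 15 members had a p-value under 0.05 and a negative difference (25%), against 13.2% of all tested genes, and none had one with a positive difference. In 24 members (40%) every library labelled Cre was below every control library, against 15.5% of all tested genes, and in none was every such library above the control, against 14.7%. Members of 1 pathway move together, so these shares are descriptions. edgeR on the recovered reads also called 3 members lower and DESeq2 called 4, and neither called a member higher.

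**Figure D2:**
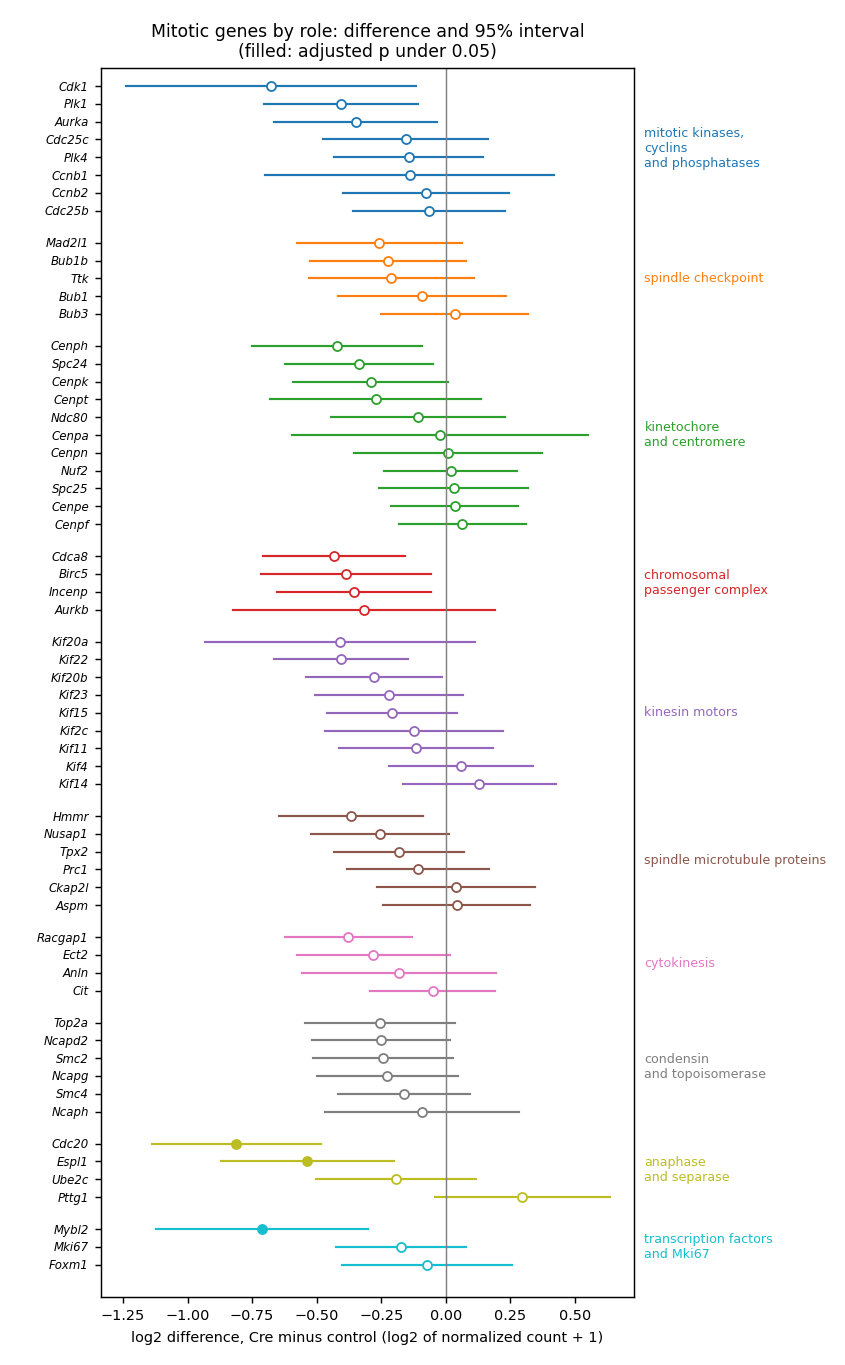
Log2 difference of each member (horizontal axis, log2 of normalized count + 1, libraries labelled Cre minus control) with its 95% confidence interval from limma, grouped by role, n = 3 libraries a group. Filled points are the 3 members with an adjusted p-value under 0.05, *Cdc20*, *Espl1* and *Mybl2*, and most open points lie left of 0.

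Levels of the members spanned a wide range. Per kilobase of exon (GENCODE M1 models), the mean control level was highest for *Plk1*, at 2766 normalized counts per kilobase, and for *Top2a*, at 1918. It was lowest for *Aurkb*, at 37.6, *Espl1*, at 45.7, and *Mybl2*, at 47.5. Of the 3 members that fell, *Espl1* and *Mybl2* were thus among the least abundant. The library kit does not mark strand. Exons of *Kif20a* overlap those of *Cdc23* on the opposite strand over 1259 bases, those of *Ncapg* overlap *Lcorl* over 942, those of *Kif4* overlap *Pdzd11* over 832 and those of *Ube2c* overlap *Tnnc2* over 592, so that reads there cannot be assigned to either gene. The table also lists pseudogenes of *Ccnb1*, *Ccnb2*, *Kif22* and *Kif4*, and how reads shared with them were counted is not given in the sources used here.

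The genes that release sister chromatids held both the strongest decrease and the strongest positive difference. *Cdc20* (ENSMUSG00000006398, chromosome 4, 118432901 to 118437343 of GRCm38), the activator of the anaphase-promoting complex, had normalized counts of 1127, 914 and 1108 in control and 668, 494 and 639 in the libraries labelled Cre. The groups did not overlap, and *Cdc20* fell by 43.0% (log2 difference -0.81 ± 0.15 SE, 95% interval -1.14 to -0.48, adjusted p = 0.00666). *Espl1* (ENSMUSG00000058290, chromosome 15, 102296254 to 102324357), which encodes separase, had 308, 323 and 277 in control and 218, 226 and 183 in the libraries labelled Cre. It fell by 31.1% (-0.54 ± 0.15, adjusted p = 0.0489), again without overlap. This call lay close to the threshold and was lost in 8 of 17 alternatives, among them no filter on low values, total count scaling and the average of control libraries 1 and 1_1, with adjusted p-values between 0.0343 and 0.178 over the alternatives.

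*Pttg1*, which encodes securin, the inhibitor that holds separase inactive, stood on the other side. Its normalized counts were 540, 446 and 563 in control and 522, 677 and 709 in the libraries labelled Cre, with a log2 difference of 0.30 ± 0.15 (adjusted p = 0.262). The library labelled Cre 2 lay within the control range and the other two above it, and the difference did not pass the test. *Ube2c*, the ubiquitin-conjugating enzyme of the anaphase-promoting complex, differed by -0.19 (adjusted p = 0.435).

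**Figure D3:**
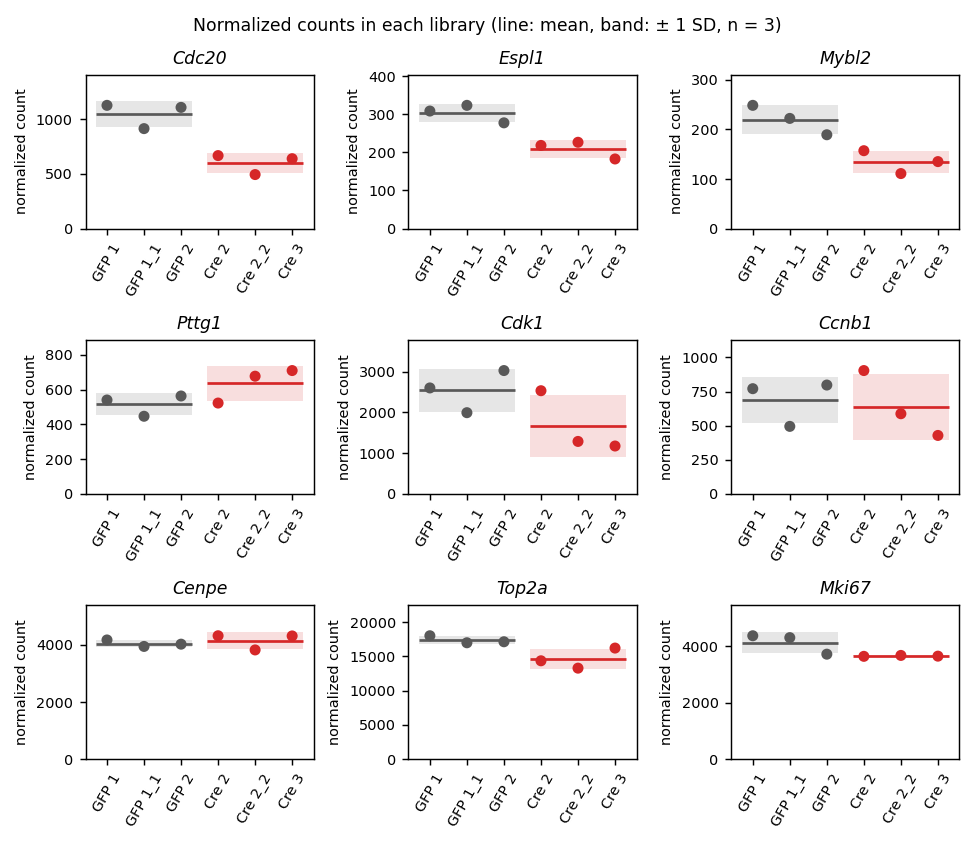
Normalized counts of 9 members in each of the 6 libraries (points), with the mean (line) and ± 1 SD (band, n = 3) of the control libraries (grey) and the libraries labelled Cre (red). In *Cdc20*, *Espl1* and *Mybl2* the groups do not overlap, *Cdk1* and *Ccnb1* have the library labelled Cre 2 far above the other two of its group, and *Cenpe* hardly differs.

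Among the transcription factors, *Mybl2*, which encodes B-MYB, the activator of G2 and M phase genes, had normalized counts of 249, 222 and 189 in control and 157, 111 and 135 in the libraries labelled Cre (chromosome 2, 163054327 to 163084688 of GRCm38). It fell by 39.0% (-0.71 ± 0.19, adjusted p = 0.0353), and the groups did not overlap. The call was lost in 6 of 17 alternatives, among them the average of control libraries 1 and 1_1 (adjusted p 0.0111 to 0.171 over the alternatives). *Foxm1*, the forkhead factor of the same genes, had 405, 336 and 407 in control and 375, 315 and 402 in the libraries labelled Cre. These ranges overlapped and the difference was -0.07 (95% interval -0.40 to 0.25, adjusted p = 0.806). *Mki67*, which coats mitotic chromosomes, had 4370, 4304 and 3717 in control and 3640, 3673 and 3647 in the libraries labelled Cre. The groups did not overlap for *Mki67*, but the difference of -0.17 ± 0.11 did not pass the test (adjusted p = 0.379).

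All 8 mitotic kinases, cyclins and phosphatases had a negative difference (median -0.15), and none passed the test. *Cdk1*, the kinase that drives entry into mitosis, had normalized counts of 2598, 1991 and 3025 in control and 2530, 1285 and 1173 in the libraries labelled Cre. Libraries 2_2 and 3 of the latter were below every control library and the library labelled Cre 2 was not, so that its difference, -0.68, carried a wide interval of -1.24 to -0.12 (adjusted p = 0.122). *Ccnb1*, its cyclin B1 partner, had 771, 494 and 798 in control and 904, 587 and 428 in the libraries labelled Cre (-0.14 ± 0.26, adjusted p = 0.782). *Plk1*, the polo-like kinase of spindle assembly, did not overlap between the groups, with 6281, 5333 and 6670 against 5229, 4124 and 4463 (-0.41 ± 0.14, adjusted p = 0.0849). *Cdc25b*, a phosphatase that activates CDK1, was the least different of the class (-0.07, adjusted p = 0.806).

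The 4 subunits of the chromosomal passenger complex, which corrects wrong attachments and guides cytokinesis, all had negative differences of similar size, between -0.43 and -0.32. *Cdca8*, which encodes borealin, had 2893, 2591 and 3125 in control and 2348, 1900 and 2136 in the libraries labelled Cre. The groups did not overlap, and the difference of -0.43 ± 0.13 just missed the threshold (adjusted p = 0.0522). *Birc5* (survivin) differed by -0.39 and *Incenp* by -0.35, with adjusted p-values of 0.132 and 0.126. *Aurkb*, the kinase of the complex and its least abundant transcript, had 143, 87.8 and 101 in control and 91.4, 73.2 and 97.6 in the libraries labelled Cre, and these ranges overlapped (-0.32 ± 0.23, adjusted p = 0.429).

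Kinetochore and centromere genes were the class with the median closest to 0, with 6 negative and 5 positive differences among 11 at a median of -0.02. *Cenph*, of the inner kinetochore, had the lowest, at -0.42 ± 0.15 (adjusted p = 0.103), with 934, 914 and 1014 in control and 895, 641 and 628 in the libraries labelled Cre. *Cenpf* and *Cenpe*, large proteins of the outer kinetochore of which CENP-E is a motor, had the highest, at 0.06 and 0.03. For *Cenpe* the 95% interval of the difference was -0.21 to 0.28, with 4176, 3950 and 4029 in control and 4324, 3827 and 4317 in the libraries labelled Cre. *Nuf2* and *Spc25*, subunits of the NDC80 complex that grips microtubules, differed by 0.02 and 0.03, and *Cenpn*, which binds centromeric nucleosomes, by 0.01. The remaining NDC80 subunits did not lie at one value, as *Ndc80* differed by -0.11 and *Spc24* by -0.33, the latter with no overlap between the groups. None of the 11 passed the test.

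Of the 5 spindle checkpoint genes, 4 had a negative difference. *Mad2l1*, which encodes MAD2, the inhibitor of CDC20, was the lowest, with 332, 424 and 357 in control and 327, 315 and 286 in the libraries labelled Cre (-0.26 ± 0.15, adjusted p = 0.300). *Bub3*, a subunit of the same inhibitory complex, was the highest (0.03, adjusted p = 0.897). The class median was -0.21, and none of the 5 passed the test.

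Kinesin motors, which move along or reshape spindle microtubules, had negative differences in 7 of 9 (median -0.21). *Kif20a*, the motor of the central spindle, had the lowest difference, at -0.41 ± 0.24 (adjusted p = 0.313). Its counts of 909, 739 and 922 in control overlapped those in the libraries labelled Cre, where library 2 had 1008 and libraries 2_2 and 3 had 564 and 464. *Kif22*, a chromosome arm motor, differed by almost as much, at -0.40 ± 0.12, with no overlap between the groups (1368, 1213 and 1346 against 1055, 905 and 1007, adjusted p = 0.0534, named after its values were seen). *Kif14*, a motor of cytokinesis, was the highest at 0.13 (adjusted p = 0.598), and *Kif4*, which acts with PRC1 at the midzone, had 0.06.

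Of the 6 spindle microtubule proteins, 4 had a negative difference (median -0.15), and none passed the test. *Hmmr*, which encodes a microtubule-binding protein of the spindle poles, was the lowest, with 1735, 1736 and 1686 in control and 1569, 1262 and 1195 in the libraries labelled Cre, a difference of -0.37 ± 0.13 (adjusted p = 0.0957) without overlap. *Aspm*, a spindle pole protein whose loss causes microcephaly, and *Ckap2l*, a spindle protein of neural progenitors, had differences of 0.04 each, with 95% intervals of -0.24 to 0.32 and -0.27 to 0.35. All 4 cytokinesis genes had a negative difference. Among them *Racgap1*, of the centralspindlin complex, had 1522, 1415 and 1391 in control and 1141, 1049 and 1141 in the libraries labelled Cre, with no overlap (-0.38 ± 0.11, adjusted p = 0.0548). *Cit*, citron kinase of the midbody, had the smallest difference of the class (-0.05, adjusted p = 0.819).

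All 6 condensin and topoisomerase genes, which compact and untangle chromosomes, had a negative difference between -0.25 and -0.09, and none passed the test. *Top2a*, topoisomerase II alpha, had 18034.5, 17008 and 17155 in control and 14371, 13294 and 16232 in the libraries labelled Cre (-0.25 ± 0.13, adjusted p = 0.258). The groups did not overlap for *Top2a*. *Ncaph*, the kleisin of condensin I, differed least (-0.09, adjusted p = 0.785).

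The 3 libraries labelled Cre were not alike in their mitotic genes. Expressed as the log2 deviation of each member from its own mean over the 6 libraries, the median over the members was 0.12, 0.07 and 0.09 in control libraries 1, 1_1 and 2. It was 0.02 in the library labelled Cre 2, -0.20 in Cre 2_2 and -0.14 in Cre 3, while the median over all tested genes lay between 0.00 and 0.01 in every library. Of the 60 members, 28 were below their own mean in Cre 2, 55 in Cre 2_2 and 40 in Cre 3, against 8, 15 and 22 in the control libraries. Cre 2 was the highest library of its group in 35 of 60 members (58.3%), against 34.9% of all tested genes. In 4 members (*Cdk1*, *Ccnb1*, *Cenpa* and *Kif20a*) the highest library labelled Cre was over 2-fold above the lowest, and Cre 2 was the highest in all 4. These 4 are 6.67% of the members, and 17.0% of all tested genes had such a spread, a difference that was not tested. *Cenpa*, the centromeric histone, named after its values were seen, had 954 in Cre 2 and 529 and 431 in the other two, with 643, 474 and 746 in control, and its mean difference was -0.02. Exons of *Kif20a* overlap those of *Cdc23* over 1259 bases. *Cdc23* had 1042, 542 and 497 in Cre 2, 2_2 and 3, with 783, 761 and 858 in control. Whether the spread of *Kif20a* is its own or comes from shared reads cannot be told apart here.

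**Figure D4:**
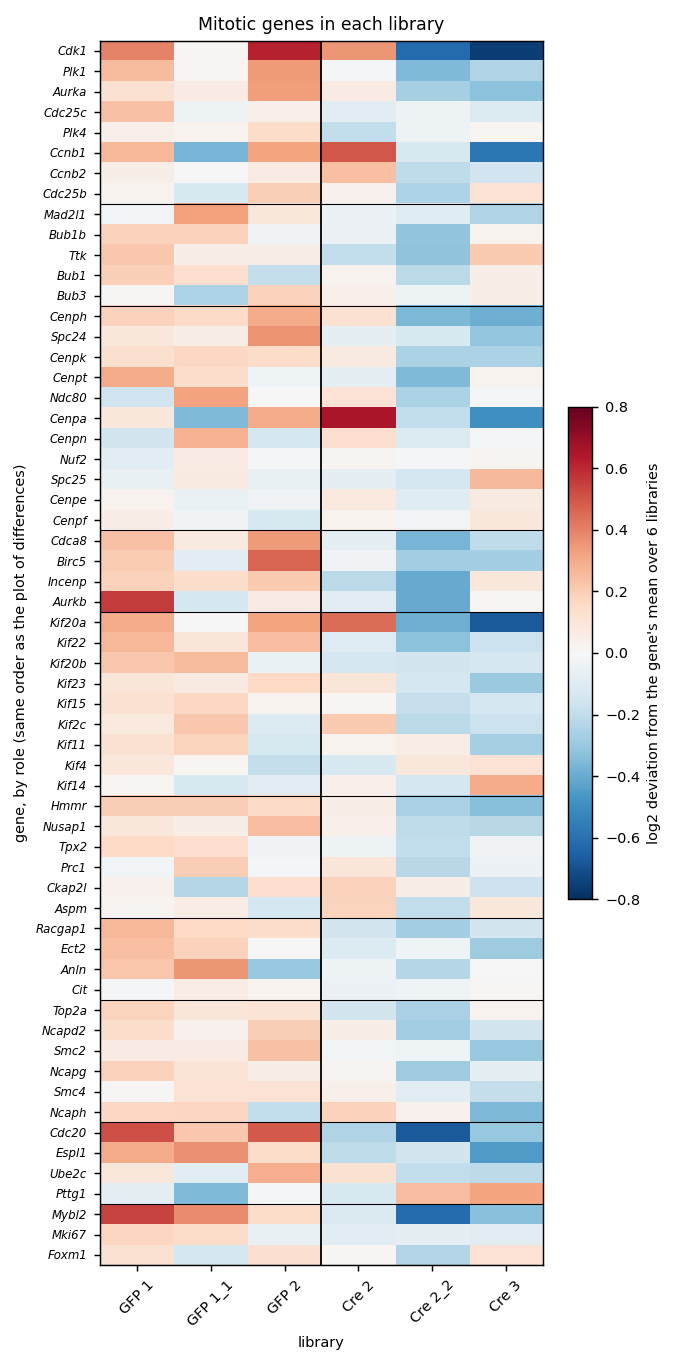
Log2 deviation of each member (vertical axis, grouped by role) from its mean over the 6 libraries (horizontal axis), from blue (below the mean) to red (above it). The library labelled Cre 2 is mixed, with a median of 0.02, while most genes are blue in Cre 2_2, with 55 of 60 below their own mean.

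Counts of calls rested on single libraries, among the members and over the whole table. Without the library labelled Cre 2, the number of members that fell was 13 in place of 3. The additions were *Cdk1*, *Plk1*, *Aurka*, *Birc5*, *Cdca8*, *Cenph*, *Hmmr*, *Kif20a*, *Kif22* and *Racgap1*. The number of genes called over the whole table, lower and higher together, went from 1478 to 2396 in that fit. The share of all genes that fell in it is not given here, so the 13 has no background share beside it. Without any 1 of the control libraries or Cre 2_2 the number of members that fell was 1, and without Cre 3 it was 2. Over the whole table, 558 to 2396 genes were called when 1 library was left out. *Cdc20* was the only member called lower in each of these 6 fits, and *Espl1* and *Mybl2* passed only in the fit without Cre 2. The median over the members moved less, between -0.26 without Cre 2 and -0.16 without Cre 2_2.

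Mitotic genes outside the 60 members also lay mostly below control. Of a wider list of 152 such genes in the table, 150 passed the filter, 113 had a negative and 37 a positive difference, and the median was -0.13. The 3 that fell (2% of the tested, against 5.22% of all genes) were *Pimreg*, *Troap* and *Cenpw*, and none rose (3 had a positive difference at an unadjusted p-value under 0.05). *Pimreg*, a mitotic regulator of the metaphase to anaphase step, had 1081, 1033 and 1124 in control and 684, 668 and 676 in the libraries labelled Cre (-0.67 ± 0.11, adjusted p = 0.00412). *Troap*, a spindle-associated protein, differed by -0.68 ± 0.15 (adjusted p = 0.0190), and *Cenpw*, a histone-fold protein of the inner kinetochore, by -0.51 ± 0.12 (adjusted p = 0.0196). Without Cre 2 the number that fell was 13, without Cre 3 it was 6, without control 1, control 2 or Cre 2_2 it was 1. *Pimreg* was called in every fit. Genes called over the whole table, lower and higher together, moved as well, between 558 and 2396 in the fits without 1 library. With directions joined there, these counts neither single out the mitotic genes nor give a share to compare them with.

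Classes of the wider list differed in how they lay. Of 31 other kinetochore and centromere genes, 29 had a negative difference (median -0.14), and of 31 other spindle, kinesin and cytokinesis genes 25 did (median -0.17). The lowest median was that of condensin II and chromosome genes, at -0.40 with 6 of 7 negative. Centriole and centrosome genes had 11 of 14 negative (median -0.14) and other mitotic entry and exit genes 18 of 23 (median -0.14). Cohesin and its regulators had 11 of 15 negative (median -0.09). Genes of the anaphase-promoting complex, the ligase that CDC20 activates, listed with some of its regulators, lay around 0, with 8 of 17 negative and a median of 0.02. Subunits and partners of DREAM, the complex that binds the CHR, had 5 of 12 negative and a median of 0.03. Their differences ranged from -0.48 to 1.01. In 2 of them (16.7%) every library labelled Cre was below control, against 15.5% of all tested genes. In 1 (8.33%) every such library was above it, against 14.7%. No gene of the anaphase-promoting complex or DREAM lists passed the test.

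DNA replication genes, which act in S phase, before G2 and mitosis, are given beside the members for scale. Of 45, 44 had a negative difference and 18 fell (40%), with a median of -0.47. The replication helicase subunit *Mcm5* had 1038, 1040 and 967 in control and 556, 549 and 595 in the libraries labelled Cre (-0.84 ± 0.12, adjusted p = 0.00138). Their median deviation was -0.23, -0.25 and -0.26 in the libraries labelled Cre 2, 2_2 and 3, and these values lay closer together than the 0.02, -0.20 and -0.14 of the members. The difference between both lists was not tested.

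**Figure D5:**
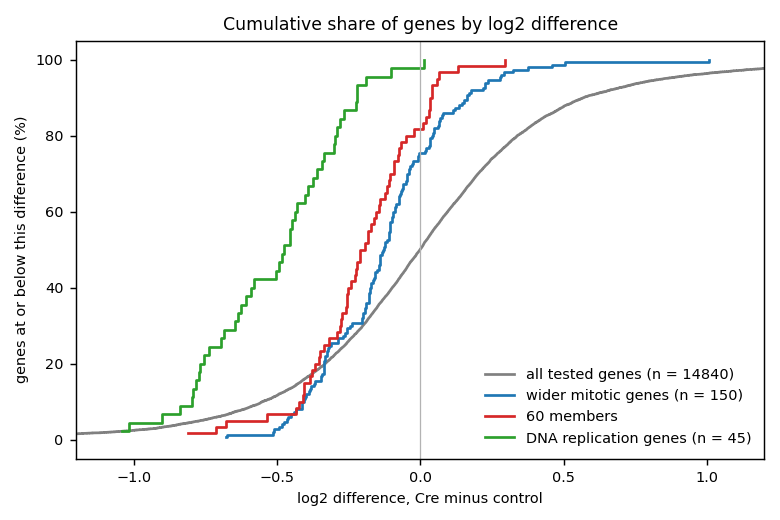
Cumulative share of genes (%) at or below each log2 difference (libraries labelled Cre minus control) for all 14840 tested genes (grey), the 60 members (red), 150 wider mitotic genes (blue) and 45 DNA replication genes (green). The curve of the members lies left of that of all genes in its middle part, with a median of -0.20, and that of the replication genes further left, with a median of -0.47.

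Some markers of neural cell types differed between the groups as well. The summed normalized count of 10 NSC markers was 38962 to 42730 in control and 39460 to 41481 in the libraries labelled Cre. Of the 10, 1 was lower (*Nes*, -0.85, adjusted p = 0.00384) and none higher. This sum joined differences of both signs, 4 negative and 6 positive, such as -0.34 for *Vim* and 0.38 for *Sox2* and for *Fabp7*. For 8 astrocyte markers it was 6897 to 8067 in control and 12942 to 16505 in the libraries labelled Cre, with 4 of the 7 tested higher, *S100b* most (3.10, adjusted p = 7.39e-07), and for 8 oligodendrocyte lineage markers it was 12488 to 14404 and 17236 to 19639, with 3 of 6 higher. Of all tested genes, 4.74% rose. The astrocyte marker *Aldh1l1* went the other way, without overlap between the groups, but did not pass the test (-1.65, adjusted p = 0.0650). Its counts were low, with a control mean of 17.3 against 5.35. *Gfap*, also an astrocyte marker, was below the filter and was not tested. For 12 neuron markers the sum was 17704 to 18795 and 15275 to 17250, with 1 of 8 higher and 1 lower. *Neurod6* and *Stmn2* were at 0 in all libraries. *Map2* and *Gap43* were the largest parts of the neuron sum. Their means were 9210 and 8711 in control and 10541 and 5196 in the libraries labelled Cre. Markers of microglia summed to 162 to 205 and 166 to 273 (1 of 6 at 0 throughout), of endothelial and mural cells to 22.7 to 40.4 and 12.1 to 14.54 (3 of 6 at 0), and of fibroblasts and meninges (*Pdgfra* is in this list and in the oligodendrocyte list) to 463 to 466 and 457 to 665 (1 of 6 at 0). The part of these markers, and of the depth of the libraries, in the levels of the mitotic genes was not tested.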

How the data were processed

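The authors prepared libraries from Trizol RNA with the TruSeq RNA kit v2. The submitters' processing notes name STAR 2.7, DESeq2 and mm10, whereas the methods name TopHat with mm9 and mm10. The read counter, its strand setting and the annotation are not given in the sources used here. What the authors deposited is a table of normalized counts (a signal: reads per gene scaled by a size factor for each library), beside columns of their own fold changes and p-values, which were not used. Of 53379 genes, 873 had no name and 1 with a blank value was left out. The value of 1 read per library was found from the lowest values, and 100% of the values came out whole to within 0.001.

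Genes with a mean of at least 10 were tested with limma 3.58.1 in R 4.3.3 (lmFit, eBayes with trend) on log2(normalized count + 1), a scale that understates the change of low genes, and the threshold was 0.05 after Benjamini-Hochberg adjustment. Alternatives on the recovered reads were edgeR 4.0.16 and DESeq2 1.42.0. The others were pseudocounts of 0.5 and 5, dropping the filter, raising it to a mean of 50, scaling by TMM or by total count, averaging control libraries 1 and 1_1 or the libraries labelled Cre 2 and 2_2, a threshold of 0.1, and leaving out each library. Members and lists were chosen with earlier results of these data known. Named genes were the members past the threshold, the lowest and highest member of each role, every member with a positive difference, 8 genes well known in dividing cells and the wider mitotic genes past the threshold, and *Aurka*, *Birc5*, *Incenp*, *Ndc80*, *Spc24*, *Ube2c*, *Cenpa*, *Kif11* and *Kif22* were named after their values were seen. Names, coordinates and promoters came from RefSeq (GRCm38.p6) and exon lengths and overlaps from GENCODE M1 (mm9).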

Additional observations from a re-analysis of the deposited data

How the results depend on the processing

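Of the 17 alternatives, all but the threshold of 0.1 fitted the data again. Over those fits the median log2 difference of the 60 members stayed between -0.26 and -0.16. The number with a negative difference stayed between 45 and 52. The count of members that fell, 3, was 6 with a mean of at least 50, where fewer genes enter the adjustment, 8 at a threshold of 0.1, 1 with control libraries 1 and 1_1 averaged, and 1 to 13 when 1 library was left out, and no member rose in any alternative. Of the wider list, 3 fell, against 9 at 0.1, 1 with the control libraries averaged and 1 to 13 with 1 library left out, and the number that rose, 0, was 1 at 0.1 and 0 to 1 with 1 library left out. Over all genes, lower and higher together, 1478 were called. The count was 2380 at 0.1, 660 with the control libraries averaged and 558 to 2396 with 1 library left out. *Cdc20* was called in all 17 (adjusted p 0.000146 to 0.0488). *Espl1* was not called in 8 (range 0.0343 to 0.178) and *Mybl2* in 6 (0.0111 to 0.171). Apart from fewer genes or libraries, the cause of these moves was not tested.

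Of the 30 members chosen by the naming rule, the sign turned in 11, none of which passed the test. With 1 library left out, the log2 difference was -0.036 to 0.15 for *Aspm*, -0.081 to 0.14 for *Bub3*, -0.42 to 0.12 for *Ccnb1*, -0.14 to 0.042 for *Cdc25b*, -0.064 to 0.15 for *Cenpn*, -0.064 to 0.13 for *Ckap2l*, -0.16 to 0.027 for *Foxm1*, -0.023 to 0.13 for *Kif4*, -0.21 to 0.063 for *Ncaph*, -0.020 to 0.057 for *Nuf2* and -0.092 to 0.11 for *Spc25*. With control libraries 1 and 1_1 averaged it was -0.019 for *Bub3* and -0.0017 for *Ckap2l*, and with the libraries labelled Cre 2 and 2_2 averaged it was -0.0062 for *Ckap2l*.

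No paired analysis was possible because the groups share only the replicate number 2. At these depths of 7510615 reads and more, all 60 members passed the filter on low values. An exact permutation test of 3 against 3 cannot go below p = 0.1.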
